A study of Homo sapiens with 4 samples.

Results

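Clade B serpins and cystatins are 2 families of protease inhibitors, and 8 of their genes were examined in PLC8024, a human hepatocellular carcinoma cell line, out of 19775 genes named on the array. They were the serpin genes SERPINB9, SERPINB1, SERPINB6, SERPINB8 and SERPINB5 and the cystatin genes CSTA, CSTB and CST3. Each was represented by all probe sets that the platform annotation assigns to that gene alone, which gave 17 probe sets for 7 genes and none for SERPINB6. Flow cytometry had separated cells of the line by CD133, a membrane protein that serves to enrich tumour-initiating cells from liver cancers. No treatment, genotype change or time point is given in the labels. The 4 samples are 1 CD133+ and 1 CD133- population, and for each there is a column of MAS5 intensities and a column of RMA values on the log2 scale. RMA and MAS5 are 2 ways of summarising probe signals into 1 value a probe set, so they are not replicates. The labels do not say if 1 array or separate ones lie behind both columns of a population, so how far RMA and MAS5 are independent of each other is unknown. Every value below is n = 1 with no error between sorts, cultures or arrays.

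Serpins are inhibitors that offer a protease an exposed loop as bait, and then change shape and trap it. Those of clade B lack the usual secretion signal and act mostly inside the cell, where they are known for shielding cells from proteases released from granules or lysosomes. Cystatins block papain-like cysteine proteases such as the lysosomal cathepsins. CSTA and CSTB encode the small cytoplasmic stefins A and B, and CST3 encodes cystatin C, which is secreted.

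Where a gene had several probe sets, the one with the highest RMA value averaged over both populations stood for it. The floor was the median RMA value of all probe sets, 5.16 in the CD133+ column and 5.14 in the CD133- column, and a gene passed it if its higher value did. A gene is called counted below if it passed the floor and both RMA and MAS5 put it 2-fold or more to the same side. Over the array, 2.25% of the 13116 genes past the floor were counted as higher in CD133+ (295 genes) and 1.09% as lower (143 genes), or 3.34% in all. The transcript of the sorted protein, PROM1, had RMA values of 10.35 in CD133+ against 6.04 in CD133-, the direction of the labels. Of the hepatocyte and HCC markers 9 of 9 measured were above the floor, and 4 of them, ALB, AFP, APOA1 and GPC3, were counted as lower in CD133+. The other 5, TTR, SERPINA1, FGB, KRT8 and KRT18, were not counted, with RMA differences from -0.33 in KRT18 to 0.28 in TTR. TTR had MAS5 intensities of 82.1 in CD133+ and 20.5 in CD133-, which passes 2-fold in that processing alone. The list thus did not differ as a whole in 1 direction. In populations of many cells, fewer cells that express a gene and less RNA per cell cannot be told apart.

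Of the 8 genes, 6 were above the floor, SERPINB5 was below it and SERPINB6 had no probe set of its own. SERPINB9 was counted as higher in CD133+ and CSTA as lower, and the other 4 were within 0.27 of no difference on the RMA log2 scale. The members were selected on family membership with their RMA and MAS5 differences between these same populations known, so the 2 counted among 6, against 3.34% of all genes, describe the choice and support nothing further. The median RMA difference of the 6 was 0.10, against 0.00 for all genes above the floor. That median lies among the members with little difference and does not reflect SERPINB9 or CSTA, which stood on opposite sides.

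**Figure D1:**
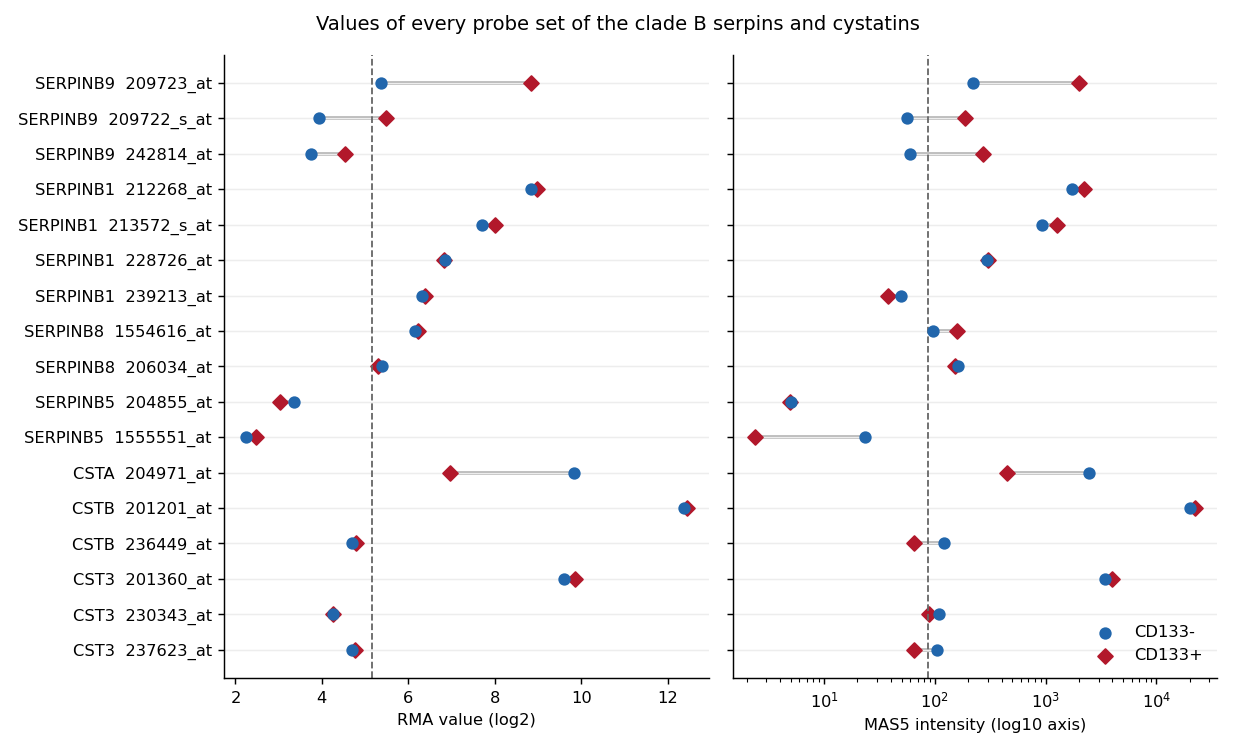
RMA values (left, log2) and MAS5 intensities (right, logarithmic axis) of all 17 probe sets of the measured genes in the CD133+ (red diamonds) and CD133- (blue circles) population, n = 1 each; dashed lines mark the median of the CD133+ column over all probe sets, 5.16 in RMA and 86.0 in MAS5. The CD133+ value was higher in all 3 probe sets of SERPINB9 and lower in the 1 probe set of CSTA, and both symbols nearly coincide in RMA for the other genes.

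SERPINB9 encodes the inhibitor of granzyme B, the protease that cytotoxic lymphocytes deliver into target cells. Its leading probe set, 209723_at, had an RMA value of 8.83 in CD133+ and 5.37 in CD133-, both above the floor. This was a difference of 3.47 on the log2 scale, or 11.1-fold, and the sixth largest among genes counted as higher. The MAS5 intensities of this probe set were 2020 and 220.3, which is 9.17-fold. Both processings therefore placed the CD133+ population far above the CD133- population.

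The other probe sets of SERPINB9 pointed the same way with smaller RMA differences. In 209722_s_at the RMA values were 5.49 in CD133+ and 3.93 in CD133-, a difference of 1.57, and the MAS5 intensities were 186.7 and 56.1. The CD133- value of this probe set was under the floor, so no fold is given. In 242814_at the RMA values were 4.54 and 3.75, both under the floor, while the MAS5 intensities were 272.3 and 59.9. The gap of 1.90 between the RMA differences of the 2 leading probe sets exceeds 0.70, the 95th percentile of such gaps over 6170 genes with 2 probe sets above the floor. In MAS5 their log2 ratios were 3.20 and 1.73, and the gap between these was under the 95th percentile of that processing, 1.64. Only 3.34% of all genes past the floor were counted, so both percentiles mostly describe genes with little difference. The direction was shared by the 3 probe sets, and the size in RMA was not.

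SERPINB1 encodes an inhibitor of neutrophil elastase and related granule proteases. It has 4 probe sets, all above the floor in both populations. The leading one, 212268_at, had RMA values of 8.97 in CD133+ against 8.85 in CD133-, a difference of 0.12, and MAS5 intensities of 2203 and 1746. The RMA differences of the 4 probe sets ran from -0.04 in 228726_at to 0.29 in 213572_s_at, and their MAS5 log2 ratios from -0.38 to 0.45. None reached 2-fold. The RMA differences were below 0.35, the SD of the gap between the RMA differences of 2 probe sets of a gene. That SD is a spread between probe sets and not an error between sorts, cultures or arrays.

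SERPINB8 encodes an inhibitor of furin-like proteases in test-tube assays. Its probe set 1554616_at had RMA values of 6.21 in CD133+ against 6.15 in CD133-, and MAS5 intensities of 160.0 and 96.6. The second, 206034_at, had RMA values of 5.30 and 5.40 and MAS5 intensities of 150.6 and 162.8. The MAS5 log2 ratios of 0.73 and -0.11 thus had opposite signs, and the RMA differences of 0.06 and -0.10 were both close to 0.

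SERPINB5 encodes maspin, a clade member of epithelial cells that does not trap proteases. Its probe sets had RMA values of 3.02 and 2.48 in CD133+ and of 3.36 and 2.25 in CD133-, all under the floor. The MAS5 intensities of 1555551_at were 2.37 in CD133+ and 23.3 in CD133-. That is a log2 ratio of -3.30 where the RMA difference was 0.22, and all 4 MAS5 intensities of the gene lay under the column medians of 86.0 and 86.1. No fold is given for SERPINB5, and no direction can be read from values that low.

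SERPINB9, SERPINB1 and SERPINB6 lie close together on chromosome 6, and among these members only SERPINB9 and SERPINB1 have measured values. The sequence before the start of both genes is shown because these neighbours of one family had such different values in the sorted populations. Each run is the 250 bases upstream of the annotated RefSeq start (build GRCh38.p14, minus strand, printed 5′ to 3′), at chr6:2903310-2903559 for SERPINB9 and chr6:2841864-2842113 for SERPINB1. Capitals mark every match to the TATA box letters TATAAA or the GC box letters GGGCGG on either strand.
SERPINB9: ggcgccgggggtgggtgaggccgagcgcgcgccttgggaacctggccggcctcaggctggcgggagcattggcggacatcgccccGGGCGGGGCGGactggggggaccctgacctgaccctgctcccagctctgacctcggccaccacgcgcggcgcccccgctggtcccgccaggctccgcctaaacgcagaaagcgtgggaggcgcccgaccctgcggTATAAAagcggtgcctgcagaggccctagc
SERPINB1: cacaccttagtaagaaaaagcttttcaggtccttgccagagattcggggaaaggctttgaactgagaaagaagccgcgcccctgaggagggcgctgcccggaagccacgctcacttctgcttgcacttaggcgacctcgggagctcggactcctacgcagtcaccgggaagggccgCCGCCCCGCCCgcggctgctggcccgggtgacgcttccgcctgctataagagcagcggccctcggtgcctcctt

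The SERPINB9 window holds 1 match to the exact letters TATAAA, from 30 to 25 bases before the start. The SERPINB1 window holds no exact match, but the letters TATAAG, which differ in 1 base, stand at the same place. An exact TATAAA match was present in 10.7% of 35116 upstream windows of the same length in the RefSeq table, counting both strands. Each window holds 2 GC box matches that overlap by 1 base, on the plus strand of the gene in SERPINB9 and on the opposite strand in SERPINB1, and 42.6% of all windows hold at least 1. The letters CCAAT occurred once in the SERPINB9 window, on the opposite strand, and not in that of SERPINB1, against 32.0% of all windows. The STAT motif TTCNNNGAA occurred once in the SERPINB1 window and not in that of SERPINB9, against 6.57% of all windows, and the kappaB consensus occurred in neither, against 9.96%. The G and C content was 74.4% in SERPINB9 and 63.6% in SERPINB1, around a median of 58.0% over all windows. These matches describe letters in the sequence, and no binding or methylation was measured here.

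**Figure D2:**
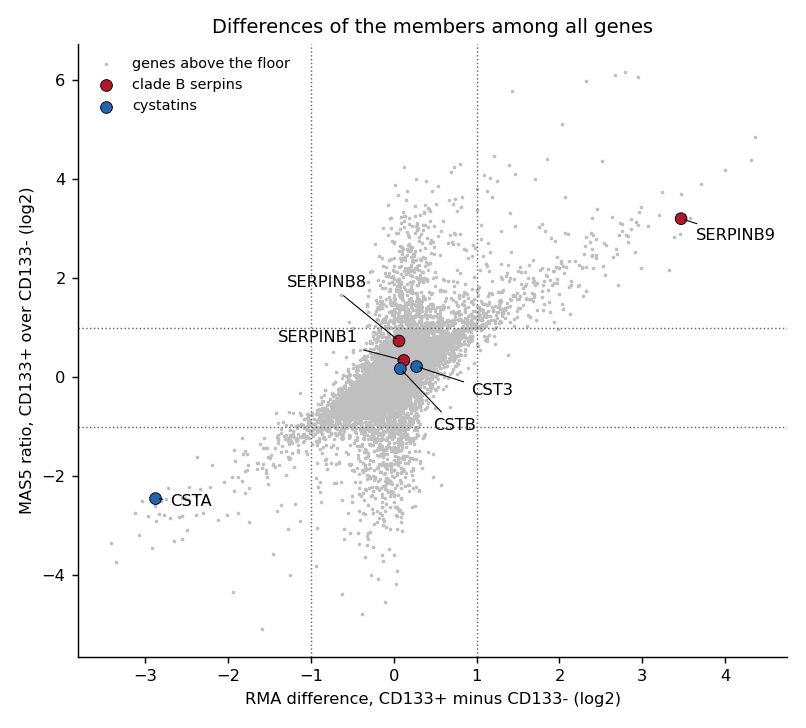
RMA difference (x axis, CD133+ minus CD133-, log2) against MAS5 log2 ratio (y axis) for the 13116 genes above the floor (grey), with the clade B serpins in red and the cystatins in blue, n = 1 per population; dotted lines mark 2-fold. SERPINB9 lies at 3.47 and 3.20, CSTA at -2.88 and -2.45, and the other 4 members lie inside the 2-fold lines on both axes.

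CSTA encodes stefin A, an inhibitor of cathepsins known from skin and other lining epithelia. It has 1 probe set, 204971_at, with RMA values of 6.97 in CD133+ against 9.84 in CD133-. This was a difference of -2.88 on the log2 scale, or 7.35-fold lower, and the ninth largest among genes counted as lower. The MAS5 intensities were 448.3 and 2458, which is 5.48-fold lower. Both populations were above the floor, and with a single probe set there is no second one to set beside it.

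CSTB encodes stefin B, the close relative of stefin A found in most cell types. Its leading probe set, 201201_at, had RMA values of 12.45 in CD133+ against 12.37 in CD133-, a difference of 0.08, and MAS5 intensities of 22478 and 20007. Its other probe set, 236449_at, was under the floor in both populations, with an RMA difference of 0.09 and a MAS5 log2 ratio of -0.91. The stefins therefore did not differ together between the populations: CSTA was lower in CD133+, and CSTB differed by 1.06-fold in RMA.

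CST3, the gene of cystatin C, had RMA values of 9.87 in CD133+ against 9.59 in CD133- in its leading probe set, 201360_at. The difference of 0.27 was the largest among the 4 members not counted, and 62.7% of genes above the floor had a smaller absolute difference. The MAS5 intensities were 3965 and 3425. The other probe sets, 230343_at and 237623_at, were under the floor in both populations, with RMA differences of 0.00 and 0.06.

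The rest of both inhibitor families was described through lists of named genes. Of 8 other clade B serpins 7 had a probe set of their own, among them SERPINB3 and SERPINB4, the squamous cell carcinoma antigens. All 7 were below the floor, the highest value being 4.28 for SERPINB12 in CD133-, and SERPINB2 had no probe set of its own. Of 16 other cystatins and related inhibitors 5 were above the floor and none was counted. CAST, which encodes the calpain inhibitor calpastatin, had an RMA difference of 0.42 in its leading probe set, but its 5 probe sets ran down to -0.49, so no direction is given. AHSG, which encodes fetuin-A, had one of -0.40. KNG1, which encodes kininogen, had one of -0.27 in its leading probe set, and 0.55 in another that was under the floor in both populations. The list's median was -0.15, against 0.00 for all genes.

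Among lysosomal proteases, many but not all of which cystatins act on, CTSF was higher in CD133+. This cysteine cathepsin had RMA values of 9.77 in CD133+ against 8.15 in CD133-, which is 3.08-fold, and MAS5 intensities of 2539 and 635.4. By leading probe sets it was the 1 gene counted among 12 cysteine cathepsins and related lysosomal proteases above the floor, and none was counted as lower. CTSZ, the gene of cathepsin Z, was not counted, although its probe sets disagreed. The leading one, 212562_s_at, had RMA values of 6.46 and 6.29, and the other, 210042_s_at, had 6.96 in CD133+ and 4.08 in CD133-, the latter under the floor. The log2 differences of 210042_s_at were 2.89 in RMA and 2.46 in MAS5, which would meet the count rule. CTSZ and the non-leading probe sets in the lists were looked at after their values were seen. The list's median RMA difference was 0.09. CTSB, which encodes cathepsin B, had RMA values of 9.88 and 10.52, a difference of -0.64, and its 5 probe sets ran from -0.75 to -0.22. CTSS and LGMN, the genes of cathepsin S and legumain, each had an RMA difference of 0.59 and were not counted. CTSS had a MAS5 log2 ratio of 1.19, which passes 2-fold in that processing alone. The list thus held values on both sides of 0, with 7 genes above it and 5 below.

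The serine proteases that clade B serpins act on, and the other genes of cytotoxic granules, were mostly below the floor. Granzyme B itself, GZMB, had RMA values of 4.27 in CD133+ against 4.20 in CD133-, under the floor in both, as were GZMA, GZMH, GZMK and GZMM. ELANE and PRTN3, the elastase and proteinase genes of neutrophils, were under it as well. Of 14 genes 5 were above the floor and 1 was counted. PLAU, the urokinase gene, had RMA values of 6.04 and 4.64, the second of them under the floor, and log2 differences of 1.40 in RMA and 3.32 in MAS5. Its other probe set was under the floor in both populations. FURIN, which encodes the protease that SERPINB8 can inhibit, had RMA values of 8.20 and 8.89, a difference of -0.68, and was not counted. KLK3 and PRF1, the perforin gene, had RMA differences of 0.22 and -0.07. The median of the 5 was -0.03.

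Genes of the death pathways that granzyme B and leaked cathepsins feed into differed in 1 case by more than 2-fold. BID, whose protein is cut by granzyme B and by cathepsins, had RMA values of 8.50 in CD133+ against 4.92 in CD133-, the second of them under the floor. Its log2 differences were 3.58 in RMA and 3.21 in MAS5, and its 3 probe sets ran from 1.5 to 3.58 in RMA. SERPINB9 and BID were both among the genes counted as higher. The other 8 genes of the list above the floor were not counted by their leading probe sets. MCL1, an anti-apoptotic BCL2 family gene, had an RMA difference of -0.50 in its leading probe set and of -1.02 in 200796_s_at, which would meet the count rule. CASP4, an inflammatory caspase, CASP8, the initiator caspase of death receptors, and ICAM1, an adhesion molecule, had RMA differences of -0.75, -0.61 and -0.51. The median of the list was -0.30, with 7 of 9 genes below 0.

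**Figure D3:**
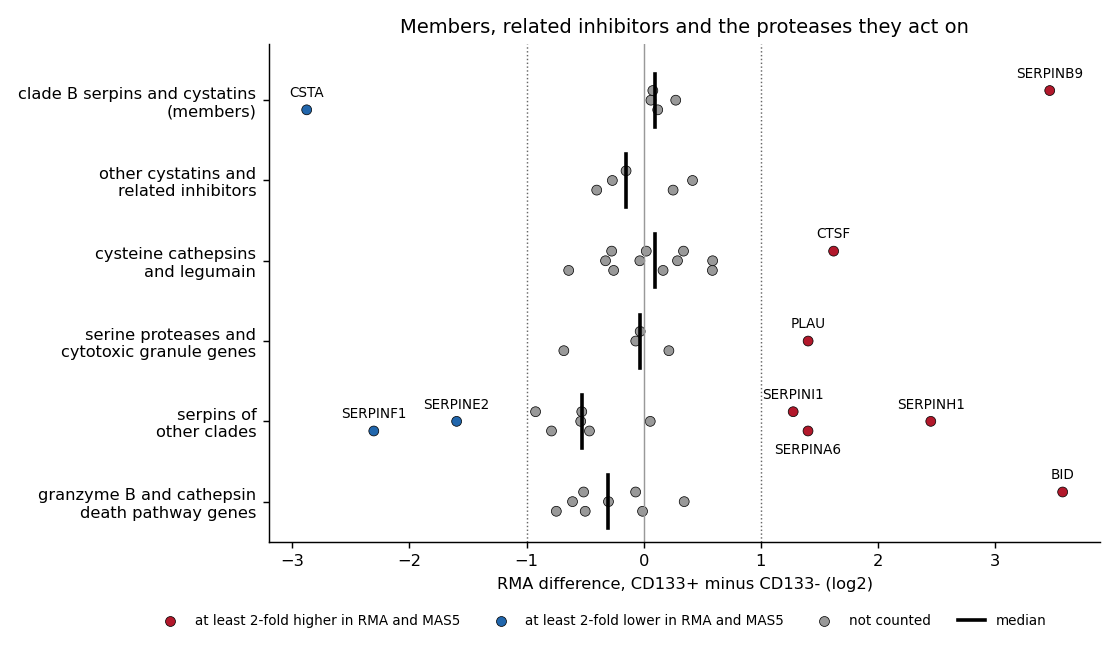
RMA difference (x axis, CD133+ minus CD133-, log2) of each gene above the floor in 6 lists, with red for genes counted as higher, blue for genes counted as lower, grey for the rest and a black bar at the list's median, n = 1 per population. The members' median of 0.10 lies between SERPINB9 at 3.47 and CSTA at -2.88, and the serpins of other clades run from -2.30 to 2.45.

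Serpins outside clade B also lay on both sides. Of the 11 that passed the floor 5 were counted, 3 higher and 2 lower in CD133+, against 3.34% of all genes. The lists were chosen with earlier results of these data known, so this count and those of the other lists support nothing further. SERPINH1, a collagen chaperone of the endoplasmic reticulum, had RMA values of 8.42 in CD133+ against 5.97 in CD133-, which is 5.47-fold. SERPINA6, which encodes the plasma carrier of cortisol, was 2.65-fold higher, from 9.40 to 10.80. SERPINI1, which encodes neuroserpin, was 2.42-fold higher, from 6.37 to 7.65. These 3 genes have 1 probe set each.

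On the other side, SERPINF1, which encodes the angiogenesis inhibitor PEDF, had RMA values of 8.03 in CD133+ against 10.33 in CD133-, which is 4.94-fold lower. SERPINE2, which encodes protease nexin, was 3.02-fold lower, from 7.40 to 5.81, and the second of its probe sets, under the floor in both populations, differed by -0.10 in RMA. SERPINF2, SERPINA5 and SERPING1, which encode plasma inhibitors of plasmin, of activated protein C and of complement C1, had RMA differences of -0.92, -0.79 and -0.54 and were not counted. SERPINA1, the gene of alpha-1-antitrypsin, had RMA values of 13.61 and 13.56. The median of the 11 was -0.53 in RMA and -0.64 in MAS5. In RMA, 7 of the 11 were below 0.

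Neighbouring genes were examined up to 10 on either side of each member in the order of the RefSeq gene table. Only genes with a probe set of their own entered this order, and distances below count those genes alone. SERPINB6, which lies between SERPINB9 and NQO2, was therefore passed over. Around SERPINB9, 14 of 20 neighbours were above the floor, and their median RMA difference was -0.09. TUBB2B, a tubulin gene 6 genes away, was 6.62-fold higher in CD133+, with RMA values of 8.85 and 6.12. TUBB2B has a close copy beside it in TUBB2A, so their probe sets can share signal. On the other side of SERPINB9, the forkhead genes FOXF2 and FOXQ1, 9 and 10 genes away, were lower. FOXF2 had RMA values of 4.44 in CD133+, under the floor, and 7.51 in CD133-, and FOXQ1 had 5.97 and 8.94, which is 7.85-fold lower. SERPINB1, the nearest neighbour above the floor on that side, and NQO2, a quinone reductase gene on the other, had RMA differences of 0.12 and -0.42. The counted genes around SERPINB9 thus lay in both directions, with genes of little difference between them.

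Around CSTA on chromosome 3, 14 of 20 neighbours were above the floor and none was counted, with RMA differences from -0.59 to 0.36. None of the neighbours of CST3 or of SERPINB5 was counted either. For SERPINB8 on chromosome 18 there was 1 counted neighbour, the cadherin gene CDH19, whose RMA values were 6.57 in CD133+ and 4.89 in CD133-, the second of them under the floor. For CSTB on chromosome 21 it was H2BC12L, a histone gene with near-identical copies whose signal it can share, which was 2.15-fold higher. The neighbours of SERPINB1 and SERPINB6 overlap those of SERPINB9 and held the same counted genes, apart from FOXQ1 for SERPINB6 and with SERPINB9 itself added.

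**Figure D4:**
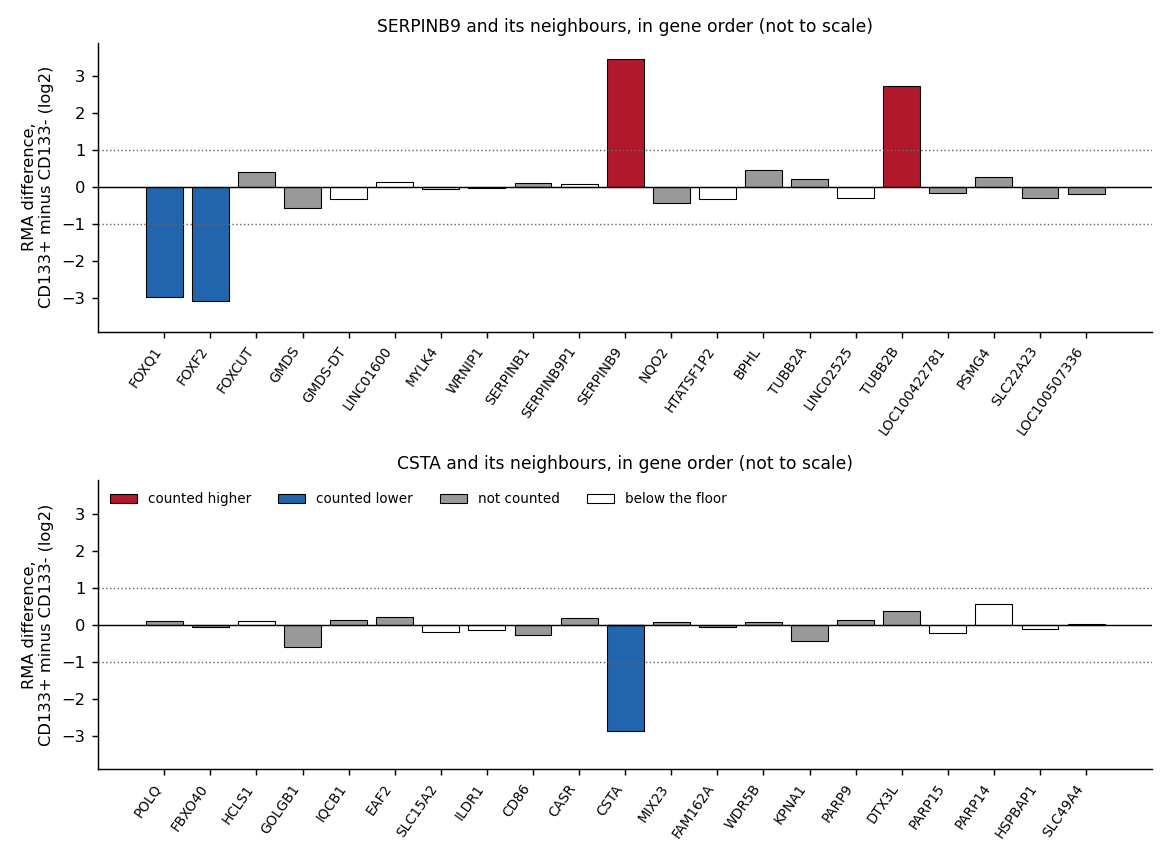
RMA difference (y axis, CD133+ minus CD133-, log2) of SERPINB9 (top) and CSTA (bottom) and of 10 neighbours on either side, n = 1 per population. Neighbours are in gene order without genomic scale, and genes without a probe set of their own, such as SERPINB6, are left out. Red and blue bars are counted as higher and lower, grey bars are not counted and open bars are below the floor. SERPINB9 at 3.47 stands beside neighbours with little difference, and the bar of CSTA at -2.88 is the 1 bar of its panel outside 2-fold.

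SERPINB9 is abundant in cytotoxic lymphocytes, and CSTA in squamous epithelium and leukocytes, so markers of these cells were read beside them. Of 10 lymphocyte markers 3 were above the floor, CD3D, CD3E and PRF1, at RMA values of at most 5.85, and none was counted. The pan-leukocyte gene PTPRC had values of 3.01 in CD133+ against 2.94 in CD133-, and CD8A, CD2, NKG7, GNLY, KLRD1 and GZMB were under the floor as well. The summed MAS5 intensities of the 10 were 431.1 in CD133+ and 388.1 in CD133-. Of 11 squamous markers measured 4 were above the floor and none was counted, with RMA differences from -0.09 to 0.27. The 4 were SFN, at RMA values of 11.25 and 11.33, TGM1, at 5.97 and 5.69, SPRR1A, at 5.75 and 5.66, and KRT4, at 5.11 and 5.20. SFN, the gene of 14-3-3 sigma, is also made in other epithelia. KRT5, KRT14, KRT13 and IVL, which define that epithelium, were under the floor in both populations. Neither set of markers thus held a counted gene.

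In the list of monocyte, macrophage and neutrophil markers, 2 of the 4 genes above the floor were counted, in opposite directions. LYZ, the lysozyme gene, had RMA values of 11.14 in CD133+ against 9.42 in CD133-, and S100A9, a subunit of calprotectin, had 6.57 and 9.04. CD14, FCGR3B, S100A8, MPO and ELANE were under the floor in both. The summed MAS5 intensities of the 9 markers measured were 10891 in CD133+ and 6367 in CD133-, most of it from LYZ at 10257 and 4008. The part of LYZ or S100A9 in the differences of SERPINB9 and CSTA was not tested. PECAM1, an adhesion molecule of endothelium, was counted as lower, at 6.11 and 7.87, with its 5 probe sets from -1.96 to 0.17 in RMA, while VWF, CDH5, KDR and TEK were not above the floor. Of the 6 fibroblast and stellate cell markers, 2 were above the floor and none was counted.

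Genes with the most similar values were found by Euclidean distance over 4 values, RMA and log2 MAS5 in both populations. Nearest to SERPINB9 were HLA-DPA1, an MHC class II chain, at a distance of 0.30, KLHDC9 at 0.49 and TIMP1, an inhibitor of metalloproteinases, at 0.55. TIMP1 had RMA values of 8.74 in CD133+ against 5.81 in CD133-. Nearest to CSTA were HABP2, a plasma serine protease, at 0.81, F12, which encodes coagulation factor XII, at 0.83 and LBP, which encodes lipopolysaccharide-binding protein, at 0.88. LBP had RMA values of 7.25 in CD133+ against 9.75 in CD133-. The distance rests on 2 populations in 2 processings, so it finds genes of like level and like difference on these arrays and nothing more.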

How the data were processed

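Expression was measured in CD133+ and CD133- cells of the PLC8024 line, with 1 value per probe set, population and processing. Per the labels, total RNA was extracted with Trizol and labelled with biotin. The authors deposited MAS5 values as linear intensity and RMA values on the log2 scale. The submitters' processing notes list GCOS, MAS5 and RMA. Tool versions and the set of arrays normalized together are not given in the sources used.

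Of 54675 probe sets 41097 had 1 gene in GEO's platform annotation, 1801 had several and 11777 had none, and only the first kind was named. Symbols were brought up to date through gene IDs in a RefSeq table of GRCh38.p14 for 41043 probe sets. Upstream sequences come from RefSeq promoter entries of the same build, which 6 of the 8 genes matched. The array has no stated build, so no other coordinates are given. Differences were taken as CD133+ minus CD133- in RMA and as the log2 ratio of MAS5 intensities, with no pseudocount, in Python 3.11.15 with pandas 2.3.3. The counting step was tested on simulated data. The changes planted there were larger than 2-fold and in genes well above the floor. The noise was smaller than the spread between probe sets of a gene. That test therefore does not cover genes near 2-fold or near the floor. No test across samples was possible with 1 column per population and processing, and no p-value is given. The number of arrays limits the precision.

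The genes described, the lists and the floor were chosen with earlier results of these data known. Genes named were every member, PROM1 and, in each list, the genes counted and up to 3 more with the largest absolute RMA difference. Also named were the counted genes among 10 neighbours with a probe set of their own on either side of a member, and the 3 genes nearest to each counted member. Genes outside this rule (marker genes, family members below the floor, CTSZ, MCL1, SERPINA1 and the neighbour NQO2) were named after their values were seen. Alternatives covered the floor, the processing, a MAS5 pseudocount of 50, the choice of probe set, centring and a fold of 1.5. A comparison of protein sequences that had been planned was not run.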

Additional observations from a re-analysis of the deposited data

How the results depend on the processing

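SERPINB9 was the 1 member counted as higher and CSTA the 1 counted as lower under all 9 alternatives. They covered the floor, the processing, the MAS5 pseudocount, the choice of probe set, centring and the fold. Not all of the 9 could have removed either gene. Dropping the floor, using 1 processing alone or a fold of 1.5 only loosens the rule, so these settings could only have added members. Centring hardly moved the values, and leaving out probe sets by the ending of their names kept the leading one of both genes. CSTA has 1 probe set, so a median over probe sets could not change it. The difference of SERPINB9 ran from 1.57, as the median over its probe sets in RMA, to 3.47, and that of CSTA from -2.88 to -2.33, the last in MAS5 with a pseudocount of 50. SERPINB8 ran from -0.02 to 0.73. No called difference changed sign. Over all genes, 1004 were counted as higher and 735 as lower in MAS5 alone, and 698 and 547 at a fold of 1.5, which asks less of each gene, against 295 and 143. No paired analysis was possible because each population has 1 column per processing and the labels give no replicate numbers, and no column could be left out for the same reason. With 1 column per population and processing, no difference could be set against a spread between sorts or cultures. Values under the floor, as in SERPINB5, have no readable order.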
